A study of Mus musculus with 22 samples.

Results

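Translation factors are the proteins that start and extend protein synthesis on the ribosome, and their mRNAs were followed here in the mouse striatum. The members were chosen by gene symbol, as those that begin with Eif1 to Eif6 or with Eef. Inhibitor genes of the Eif4ebp type, Eif2ak2 and pseudogenes marked -ps were left out. This gave 66 of the 55341 gene symbols counted. The libraries came from mice whose ribosomal protein Rpl10a carries an EGFP tag in neurons that express the dopamine receptor Drd1 (D1 neurons, the medium spiny neurons of the direct pathway). The pulldown with antibodies to EGFP (IP) holds ribosome-bound mRNA of the tagged cells, and the input holds mRNA of the same cleared striatal lysate. Both were made from 6 wild-type animals (numbers 1, 4, 12, 13, 14 and 20) and 5 animals (2, 3, 9, 10 and 11) mutant for Fmr1, the gene of the RNA-binding protein FMRP that is silenced in fragile X syndrome. Wild-type and mutant animals both carried the tag, so there was no untagged control among the groups used. The labels give no age, sex, strain, litter or Fmr1 allele, and do not mention pooling. The series asks how ribosome-bound mRNA in D1 neurons differs in the mutant.

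The initiation factors have separate tasks. eIF4F binds the cap and unwinds the leader, eIF3 links it to the small ribosomal subunit, and eIF2 brings the initiator tRNA to that subunit. The factors eIF1, eIF1A and eIF5 choose the start codon before eIF5B joins the large subunit. In elongation, eEF1A delivers each aminoacyl-tRNA, the eEF1B subunits recharge eEF1A, and eEF2 moves the ribosome to the next codon. In neurons these steps are set by signalling at the cap, at eIF2 and at eEF2, and FMRP is known as a repressor of translation. An mRNA level is not a measure of the protein or of its activity.

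The libraries held 9375611 to 82376192 counts in wild-type IP, 13759027 to 49669222 in mutant IP, 25164548 to 38270808 in wild-type input and 28438717 to 43276230 in mutant input. Mitochondrial ribosomal RNA took 0.42% to 0.90% of counts in IP and 25.1% to 53.2% in input. Levels below are CPM, counts relative to sequencing depth, scaled by the TMM method over all 22 libraries. Fmr1 mRNA was at 86.3 ± 12.4 CPM in wild-type IP (SD, n = 6) and 9.99 ± 1.29 in mutant IP (n = 5). In input it was at 63.7 ± 4.72 and 13.2 ± 1.6 CPM, so the libraries match their genotype labels. The 5 markers of D1 neurons summed to 901 to 1262 CPM in wild-type IP against 433 to 583 in input, and the 4 markers of D2 neurons to 43.3 to 76.3 against 749 to 984. Markers of oligodendrocytes summed to 122 to 188 CPM in wild-type IP and 1974 to 2862 in input, those of astrocytes to 17.4 to 33.2 and 262 to 367, and those of microglia to 2.03 to 3.2 and 51.5 to 87.5. In the mutant, D1 markers summed to 946 to 1178 CPM in IP and 314 to 499 in input, D2 markers to 44.6 to 72.3 and 479 to 871, oligodendrocyte markers to 144 to 200.2 and 2402 to 2977, astrocyte markers to 20.6 to 37.3 and 312 to 356, and microglial markers to 1.09 to 2.87 and 66.3 to 86.6. No marker was at 0 in any group. In 4 animals the markers of cortical excitatory neurons stood apart. In IP they summed to 70.5 and 231 CPM in wild-type animals 1 and 12 and to 122 and 214 CPM in mutant animals 3 and 9, against 0.746 to 5.99 in the other animals. Input showed the same 4 animals, with 71.9 to 377 CPM against 4.21 to 10.5. Results without these 4 animals are given beside the counts below.

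Of the 66 members, 64 had at least 1 read. Eif4e1b, an oocyte form of the cap-binding protein, and Eif2c5, annotated as a long noncoding RNA that shares only its name's prefix, had none. Eef1akmt3 had too few reads to be tested, which left 63 members in each comparison. The members together summed to 7154 to 7612 CPM in wild-type IP, 7436 to 8011 in mutant IP, 6964 to 7472 in wild-type input and 7194 to 7795 in mutant input. These ranges overlapped between IP and input and between genotypes.

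Levels of different members were compared per kilobase (kb) of merged exons. Eef1a1, which encodes the ubiquitous form of eEF1A, was the highest, at a mean of 372 CPM per kb over the 22 libraries. Eif1, a guardian of start codon choice, followed at 147, and Eef2, the translocase, at 109. Eef1a2, the form of eEF1A found in neurons and muscle, was at 95.3. Eif4g2, a relative of the eIF4G scaffold that lacks the part that binds the cap-binding protein eIF4E, was at 90.9. Eif4a2, an RNA helicase of eIF4F, was at 90.7. Eef1a1 stood apart from its neighbours in every group. The last 3 do not form a fixed order: in wild-type input Eif4g2 was at 90.3 ± 6.2 CPM per kb (SD, n = 6), Eif4a2 at 84.6 ± 5.48 and Eef1a2 at 73.4 ± 8.38. In wild-type IP Eef1a2 was at 118 ± 11.9, above Eef2 at 105 ± 4.41.

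Most of the regulatory kinases were low. Eef2k, the kinase that inactivates eEF2, was at a mean of 1.51 CPM per kb over the 22 libraries. Among the kinases of eIF2, Eif2ak3 (PERK, of the endoplasmic reticulum) was at 1.27, Eif2ak4 (GCN2, of amino acid shortage) at 1.6 and Eif2ak1 (HRI, of haem shortage) at 9.41. None of these 4 passed the test in any comparison.

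In the comparison of IP with input, members moved in both directions. In wild type, 16 of 63 members were higher in IP and 15 were lower, with edgeR's quasi-likelihood test at an adjusted p under 0.05. Among all 17311 genes tested, 21.8% were higher and 27.8% lower in wild type. In the mutant 15 were higher and 13 lower, against 20.9% and 26.4% of all genes. The members' shares were close to those of all genes. Without the 4 animals with cortical marker mRNA, the counts were 16 and 12 in wild type and 14 and 10 in the mutant. The shares of all genes given here are those of the fit with all animals, and none were taken without the 4. The members' median log2 fold change was 0.03 in wild type and 0.04 in mutant animals, and that of all genes was -0.11 in both. The calls were largely shared: 15 members were higher and 11 lower in both genotypes. The call was in wild type alone for Eif2s1, Eif2d, Eif2s2, Eif5a and Eif6 and in the mutant alone for Eef2 and Eif2b5. None of these 7 passed the test of the difference between genotypes. With the animal as a block, which pairs IP and input, Eif2s1 (0.21 ± 0.08, edgeR adjusted p = 0.0386) and Eif6 (-0.41 ± 0.16, adjusted p = 0.0348) were also called in the mutant. No call was lost with the block. IP differs from input both in cell type and in ribosome binding, and in such bulk samples fewer cells of a type, less RNA per cell and less ribosome binding cannot be told apart. The fall of the glial and D2 markers given above moves with every one of these results, and its part in them was not tested.

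**Figure D1:**
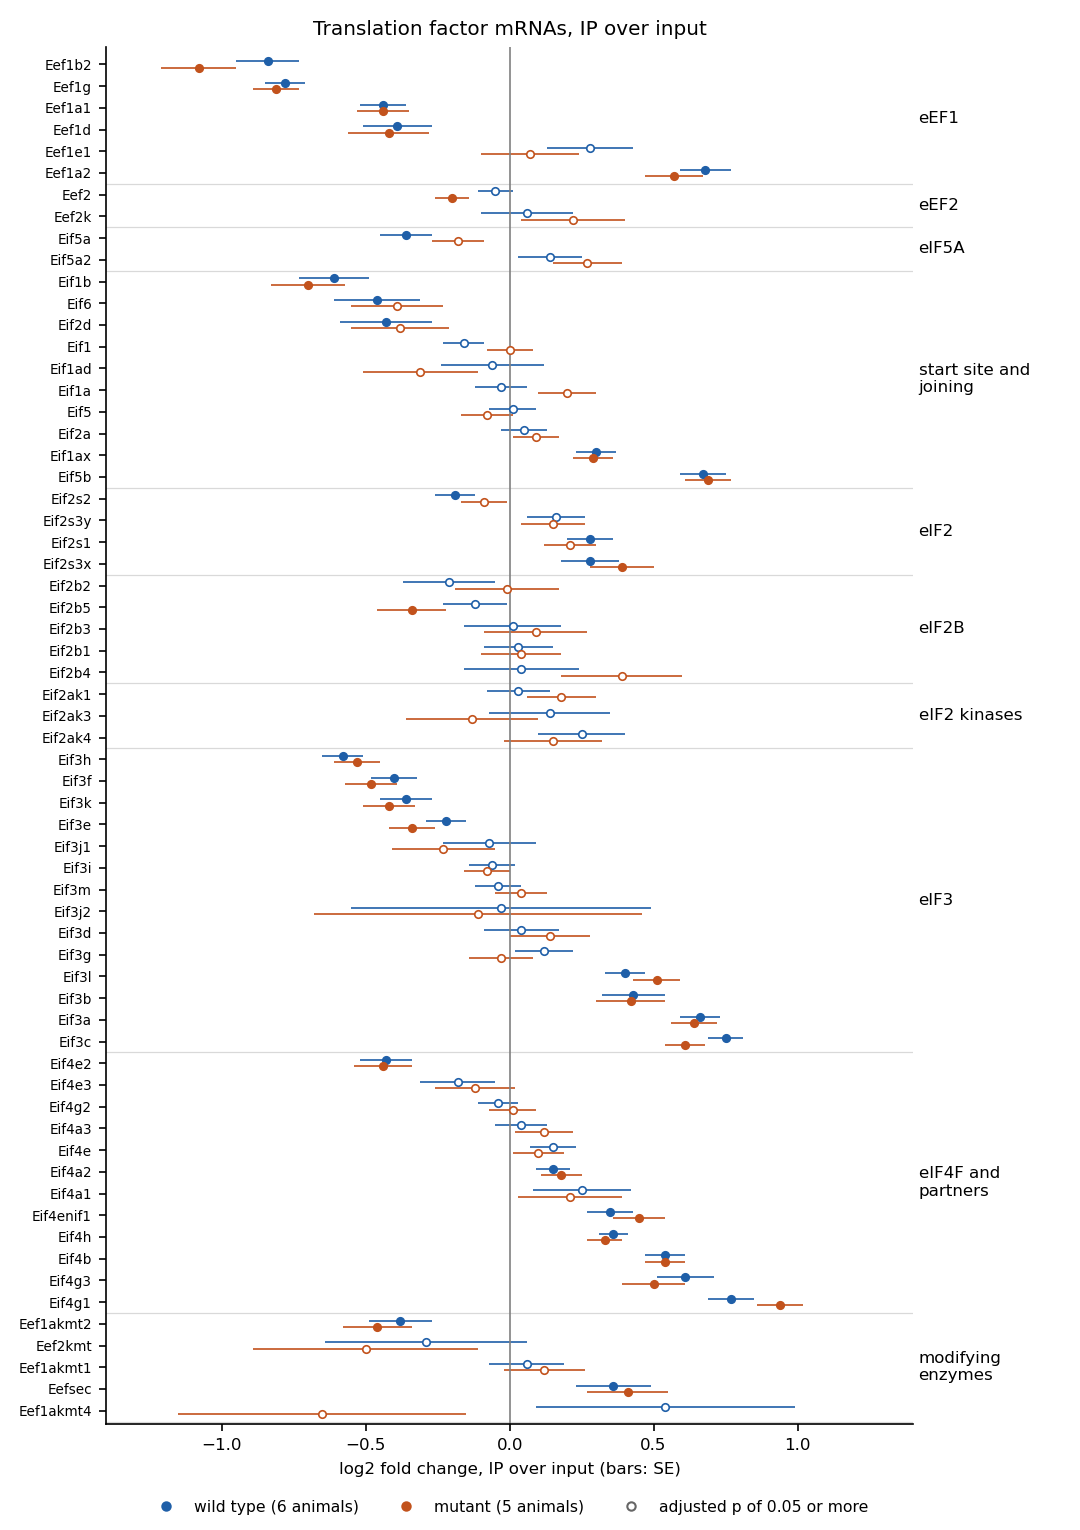
Log2 fold change of IP over input for the 63 members tested, in wild type (blue, 6 animals) and mutant (orange, 5 animals), grouped by role, with bars of 1 SE. Filled points passed an adjusted p of 0.05. Members of the group of eIF4F and partners lie mostly to the right and 4 of 6 eEF1 members to the left in both genotypes.

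The group of eIF4F and its partners showed the most calls upward. It is wider than the eIF4F complex and also holds related genes such as Eif4b, Eif4h, Eif4e2, Eif4g2, Eif4a3 and Eif4enif1. Of its 12 members tested, 6 were higher and 1 lower in IP in each genotype, with medians of 0.20 and 0.19. The 6 were Eif4a2, Eif4b, Eif4enif1, Eif4g1, Eif4g3 and Eif4h. Among all genes, 21.8% were higher and 27.8% lower in wild type, and 20.9% and 26.4% in the mutant. Eif4g1 encodes the scaffold that links cap, helicase and eIF3. Its level in wild-type input ran from 63.2 to 80 CPM with a median of 73.7, and in wild-type IP from 117 to 148 with a median of 121. In mutant input it was 56.3, 60, 65, 69.1 and 70.9 CPM, and in mutant IP 117, 119, 120.4, 127 and 132. IP and input did not overlap in either genotype. Eif4g1 rose by 0.77 ± 0.08 on the log2 scale in wild type (SE, edgeR adjusted p = 2.87e-09) and by 0.94 ± 0.08 in the mutant (adjusted p = 5.87e-10). Its paralog Eif4g3 rose by 0.61 ± 0.10 and 0.50 ± 0.11, from medians of 113 to 175 CPM in wild type. Eif4b, a cofactor of the helicase, rose by 0.54 ± 0.07 in both genotypes, and the related Eif4h by 0.36 ± 0.05 and 0.33 ± 0.06. Eif4e2, a cap-binding protein that competes with eIF4E and represses mRNAs, fell by 0.43 ± 0.09 in wild-type and 0.44 ± 0.10 in mutant animals. Its wild-type levels were 50.5 to 60 CPM in input (median 54.1) and 35.1 to 45.4 in IP (median 41.2). The cap-binding protein itself, Eif4e, had 14.5 ± 0.955 CPM per kb in wild-type IP and 13.1 ± 1.36 in wild-type input, and passed no test.

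Of the 14 eIF3 subunit genes, 4 were higher and 4 lower in IP, shares near the 21.8% and 27.8% of all genes in wild type. They were the same 8 in both genotypes, and in the mutant 20.9% of all genes were higher and 26.4% lower. The higher ones were Eif3a, Eif3b, Eif3c and Eif3l, and the lower ones Eif3e, Eif3f, Eif3h and Eif3k. eIF3a, eIF3b and eIF3c belong to the core around which the other subunits gather. Eif3c was at 150.4 to 181 CPM in wild-type input (median 160.0) and at 243 to 308 in IP (median 271). In the mutant it was at 162, 166, 166, 167 and 177 CPM in input and at 238, 243, 244, 269 and 282 in IP. Again IP and input did not overlap. Eif3c rose by 0.75 ± 0.06 in wild type (edgeR adjusted p = 2.11e-10) and 0.61 ± 0.07 in the mutant, Eif3a by 0.66 ± 0.07 and 0.64 ± 0.08, Eif3b by 0.43 ± 0.11 and 0.42 ± 0.12, and Eif3l by 0.40 ± 0.07 and 0.51 ± 0.08. Eif3h, which encodes one of the pair of MPN-domain subunits, went the other way. It was at 103 to 114 CPM in wild-type input (median 108) and at 64.4 to 77.6 in IP (median 74.1). Mutant input gave 108, 111, 112, 115 and 128 CPM and mutant IP 73.9, 74.1, 75.1, 83.8 and 92.2. Eif3h fell by 0.58 ± 0.07 in wild type (edgeR adjusted p = 1.03e-07) and 0.53 ± 0.08 in the mutant, and Eif3f, the other MPN-domain subunit, by 0.40 ± 0.08 and 0.48 ± 0.09. The remaining lower pair changed less in wild type, with -0.36 ± 0.09 for Eif3k and -0.22 ± 0.07 for Eif3e. Of the 50-base stretches of their transcripts, 26.2% for Eif3h and 22% for Eif3e also occur in other genes. The same holds for 54.8% of those of Eif3j1 and 91.8% of those of Eif3j2. The coding sequences of Eif3j1 and Eif3j2 match at 100% of aligned bases, so their reads can hardly be told apart. Neither was called in either genotype.

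The eEF1 genes held the lowest IP over input values and one of the highest. Of 6 members, 1 was higher and 4 were lower in each genotype, with medians of -0.42 and -0.43. The shares of all genes were 21.8% higher and 27.8% lower in wild type, and 20.9% and 26.4% in the mutant. Eef1b2, which encodes the exchange factor eEF1B alpha, was at 83.1 to 113 CPM in wild-type input (median 94) and 41 to 64 in IP (median 52.6). In the mutant it was at 89.5, 107, 113, 117 and 151 CPM in input and at 44.8, 51.3, 52.2, 57.4 and 66.5 in IP. The lowest input lay above the highest IP library. Eef1b2 fell by 0.84 ± 0.11 on the log2 scale in wild type (edgeR adjusted p = 6.77e-07) and by 1.08 ± 0.13 in the mutant (adjusted p = 5.94e-08). Eef1g, the eEF1B gamma subunit, fell by 0.78 ± 0.07 and 0.81 ± 0.08, from a wild-type median of 134 CPM in input to 76.6 in IP. Eef1d, the eEF1B delta subunit, fell by 0.39 ± 0.12 and 0.42 ± 0.14. This call was the least firm of the 4: without wild-type animal 4 its wild-type adjusted p was 0.0613, and without the 4 animals with cortical marker mRNA its mutant adjusted p was 0.101. Reads of Eef1g are uncertain in another way, since 64.3% of the 50-base stretches of its transcript also occur in other genes.

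The eEF1A paralogs moved apart. They encode closely related proteins, and their coding sequences match at 80.1% of aligned bases. The first 60 coding bases are shown because they let a reader see how reads of the 2 mRNAs can be told apart, with the 11 differing bases in capitals (GENCODE transcripts, build GRCm38).
Eef1a2: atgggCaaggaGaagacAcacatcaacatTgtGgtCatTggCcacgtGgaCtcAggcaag
Eef1a1: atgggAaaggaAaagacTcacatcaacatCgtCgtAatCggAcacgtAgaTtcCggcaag
Eef1a2 (chr2:181147653-181157014, minus strand) was at 129 to 174 CPM in wild-type input (median 156) and 212 to 278 in IP (median 245). Eef1a1 (chr9:78478449-78489151, minus strand) was at 891 to 1161 CPM in wild-type input (median 1034) and 674 to 838 in IP (median 771). In wild type, IP and input did not overlap for either gene. In the mutant, Eef1a2 was at 135, 148, 152, 181 and 184 CPM in input and at 218, 229.8, 234, 235 and 267 in IP. Mutant Eef1a1 was at 959.7, 1119.5, 1127, 1136 and 1222 CPM in input and at 729, 739, 817, 847 and 984 in IP, so that its highest IP library lay above its lowest input library. Eef1a2 rose by 0.68 ± 0.09 in wild type (edgeR adjusted p = 2.98e-07) and 0.57 ± 0.10 in the mutant, while Eef1a1 fell by 0.44 ± 0.08 and 0.44 ± 0.09. No 50-base stretch of the Eef1a2 transcript occurs in another gene, whereas 60.6% of those of Eef1a1 do, so the level of Eef1a1 is the less certain.

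**Figure D2:**
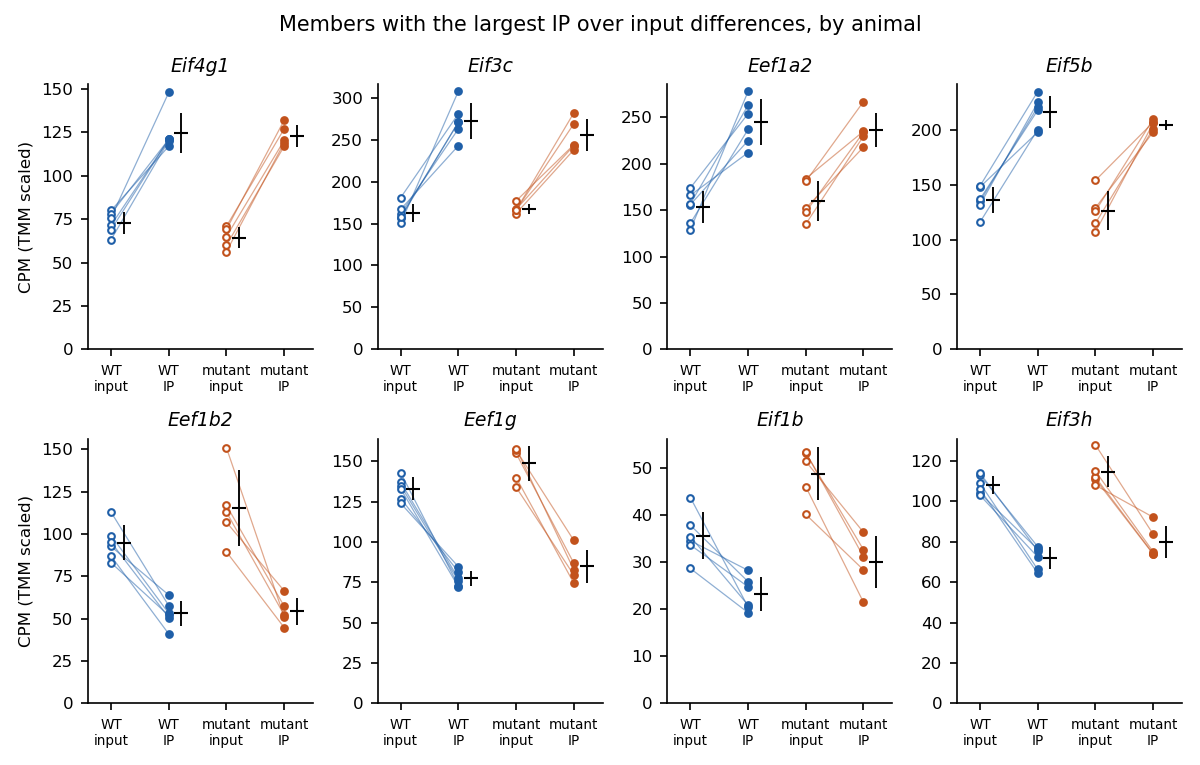
CPM of 8 members in each library, with lines joining the input (open) and IP (filled) library of one animal and black bars for mean and SD (6 wild-type, 5 mutant animals). The 4 genes in the upper row are higher in IP and the 4 in the lower row are lower in IP, in each of the 11 animals.

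As a share of the pair per kb, Eef1a2 made up 15.2% ± 1.89 of eEF1A mRNA in wild-type input (SD, n = 6) and 27.9% ± 1.45 in wild-type IP. The mutant values were 14.7% ± 2.39 and 25.7% ± 1.75 (n = 5). The ratio of Eef1a2 to Eef1a1 was higher in IP than in the input of the same animal in 11 of 11 animals, with a median difference of 1.06 on the log2 scale and a range of 0.58 to 1.64. Other pairs were described in the same way. The ratio of Eif5a2 to Eif5a, the hypusine-carrying factors, was higher in IP in 11 of 11 animals with a median difference of 0.41. Eif5a2 itself was called in the mutant with the animal block alone, at 0.26 ± 0.09 (edgeR adjusted p = 0.017). Eif1b fell relative to Eif1 in 11 of 11 animals (median -0.59), Eif4g2 relative to Eif4g1 (median -0.88) and Eif4e2 relative to Eif4e (median -0.54). The helicases Eif4a2 and Eif4a1 kept nearly the same ratio, with a median difference of -0.10 and a higher ratio in IP in 4 of 11 animals. Eif4a2 rose by 0.15 ± 0.06 and 0.18 ± 0.07 in the 2 genotypes. Eif4a1 was higher in IP than in input in each animal, at 0.25 and 0.21 on the log2 scale, and did not pass the unpaired test. With the animal block it was called in both genotypes, at 0.25 ± 0.05 (edgeR adjusted p = 0.000688) and 0.23 ± 0.06 (adjusted p = 0.00369). For Eif4a1, 65.3% of the 50-base stretches of its transcript occur in other genes, and for Eif4a2 26.2%. The share of a pair depends on the length used for each gene. With the longest coding transcript in place of merged exons, the log2 ratio of Eif4e2 to Eif4e in wild-type input was 0.29 in place of -0.83. The length cancels in the difference between IP and input.

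**Figure D3:**
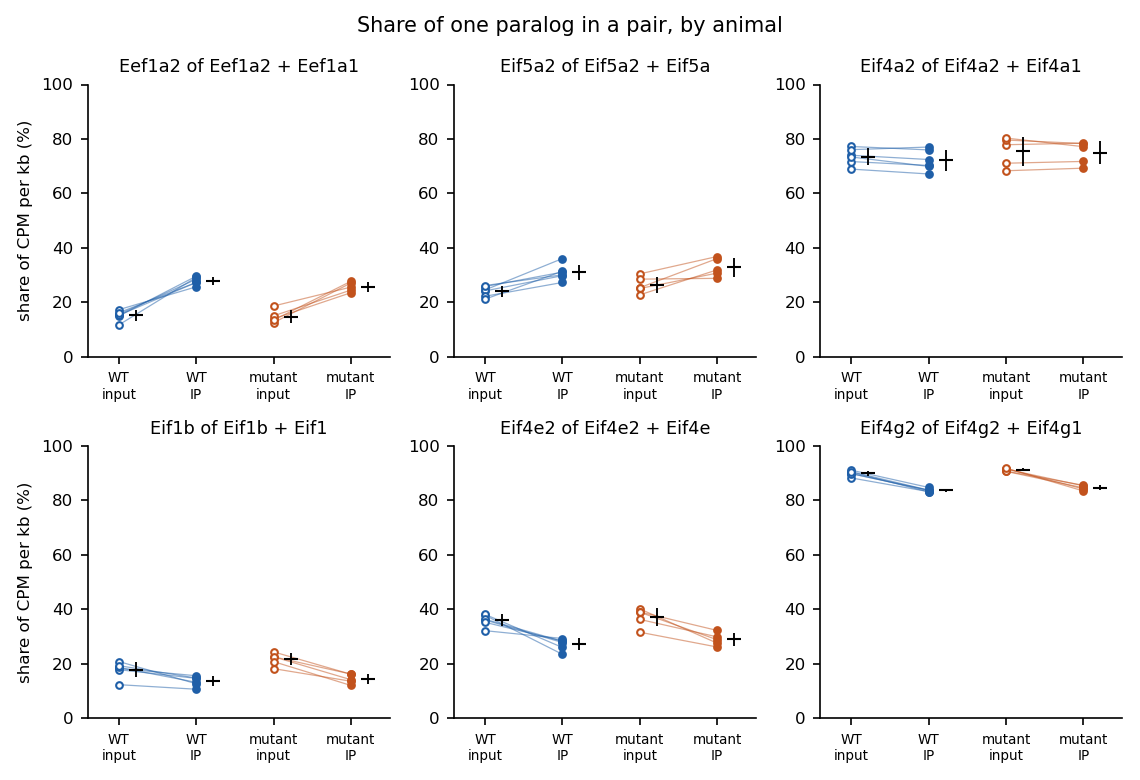
Share of one paralog in the summed CPM per kb of a pair, in percent, for 6 pairs, with lines joining input (open) and IP (filled) of one animal and black bars for mean and SD. Eef1a2 rises from 15.2% to 27.9% of its pair in wild type, and Eif4a2 makes up 73.6% of its pair in wild-type input and 72.2% in wild-type IP.

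Of the 10 factors of start codon choice and subunit joining, 2 were higher and 3 lower in wild type, close to the 21.8% and 27.8% of all genes. In the mutant 2 were higher and 1 lower, against 20.9% and 26.4% of all genes. Eif5b, the GTPase that joins the subunits, was at 116 to 149 CPM in wild-type input (median 136) and 198 to 235 in IP (median 219). It rose by 0.67 ± 0.08 in wild-type and 0.69 ± 0.08 in mutant animals. Its gene overlaps Rev1 over 16.8% of exon bases, and the library kit does not mark the strand, so some reads cannot be assigned. Eif1 was at -0.16 in wild type, with an edgeR adjusted p of 0.0514, or 0.0147 with the animal block. Eif1ax, one of the eIF1A genes, rose by 0.30 ± 0.07 and 0.29 ± 0.07. Eif1b, a paralog of Eif1, was at 28.7 to 43.8 CPM in wild-type input (median 35.1) and 19.3 to 28.3 in IP (median 22.9). It fell by 0.61 ± 0.12 in wild-type and 0.70 ± 0.13 in mutant animals. The Eif1b gene overlaps D830035M03Rik over 12.7% of exon bases, so some of its reads cannot be assigned either. Eif6, an anti-association factor of the large subunit, fell by 0.46 ± 0.15 in wild type. Its edgeR adjusted p was 0.0135 there, 0.0737 without animal 12, and 0.0533 in the mutant at -0.39 ± 0.16, or 0.0348 with the animal block.

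Of the 4 eIF2 subunit genes, 2 rose and 1 fell in wild type, and 1 rose in the mutant. Among all genes, 21.8% rose and 27.8% fell in wild type, and 20.9% and 26.4% in the mutant. Eif2s3x, the X-linked gamma subunit, rose by 0.28 ± 0.10 and 0.39 ± 0.11. Of the 50-base stretches of its transcript, 36.2% also occur in other genes. Its Y-linked paralog Eif2s3y, with no such shared stretch, was called in neither genotype. Eif2s3y ran from 23.3 CPM in mutant input to 35.3 in mutant IP over all 22 libraries, so every animal gave Y-linked mRNA. Eif2s1, the alpha subunit whose phosphorylation blocks initiation, rose by 0.28 ± 0.08 in wild type and was at 0.21 ± 0.09 in the mutant, with an edgeR adjusted p of 0.0517, or 0.0386 with the animal block. Eif2s2, the beta subunit, fell by 0.19 ± 0.07 in wild type and was at -0.09 ± 0.08 in the mutant. Its transcript shares 27.8% of its 50-base stretches with other genes. No eIF2 kinase and none of the 5 eIF2B subunits passed in wild type. In the mutant, Eif2b5, the catalytic subunit of eIF2B, fell by 0.34 ± 0.12. Eef2 fell by 0.20 ± 0.06 in the mutant and was at -0.05 ± 0.06 in wild type. Among the modifying enzymes, Eef1akmt2, a lysine methyltransferase of eEF1A, fell by 0.38 ± 0.11 and 0.46 ± 0.12. Eefsec, the elongation factor for selenocysteine, rose by 0.36 ± 0.13 and 0.41 ± 0.14.

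Counted by animal, 13 of the 63 members were higher in IP than in input in each of the 11 animals, against 17.5% of all genes. A further 10 were lower in each, against 21.4%. The 13 include Eif4a1 and Eif2s1, and the 10 include Eif3k and the 4 lower eEF1 genes.

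Some translation factor mRNAs carry a 5′ terminal oligopyrimidine (TOP) tract, a C at the first base followed by a run of C and T through which mTOR signalling controls their translation. A list of 9 members known as TOP mRNAs was described: Eef1a1, Eef1b2, Eef1d, Eef1g, Eef2, Eif3e, Eif3f, Eif3h and Eif4b. In wild type 7 fell, 1 rose (Eif4b) and Eef2 passed in neither direction, with a median of -0.40. The 7 are the lower eEF1 genes with Eif3e, Eif3f and Eif3h, already counted above. In the mutant 8 fell and Eif4b rose, with a median of -0.44. Of all genes tested, 27.8% fell and 21.8% rose in wild type, and 26.4% and 20.9% in the mutant. The medians of all 63 members were 0.03 and 0.04, and that of all genes was -0.11 in both genotypes. RefSeq start sites (GRCm38.p6) were available for 52 members, with 67 start windows from 10 bases before to 20 bases from the start. A C at the start followed by C or T to a run of at least 5 bases stood in 3 of the 67 windows (4.48%) and in 823 of the 32851 windows of all genes (2.51%). Only the strand of transcription was read. The third belongs to Eif2c5, which had no reads. The windows of the 2 tested members with such a run are shown, with the run in capitals, because they belong to members that moved in opposite directions.
Eif3f: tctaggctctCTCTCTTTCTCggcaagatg
Eif2s3x: gagcattttcCTTTTCTCTCCgagcaagat
The Eif3f window lies at chr7:108934405-108934434 on the plus strand, and Eif3f fell in IP. The Eif2s3x window lies at chrX:94212632-94212661 on the minus strand, and Eif2s3x rose. Of the 9 listed TOP members, only Eif3f had such a run. The windows of Eef1a1, Eef1b2, Eef2 and Eif4b had none, and Eef1d, Eef1g, Eif3e and Eif3h had no window. The tract was thus not seen here for most of the list. A window without such a run says only that these letters do not begin at the RefSeq start.

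Members also differed by length. In wild type the median log2 fold change of IP over input was -0.16 for the 15 members with a coding length under 750 bases, -0.03 for the 26 from 750 to 1500, 0.05 for the 12 from 1500 to 2500 and 0.48 for the 10 from 2500 on. The medians of all genes in the same ranges were -0.32, -0.07, 0.13 and 0.23. Of the 10 longest, 6 rose and none fell in wild type, where 43.2% of all genes of that length rose and 21.3% fell. In the mutant 6 of them rose and 1 fell, against 39% and 22.6% of all genes of that length. Of the 15 shortest, 2 rose and 6 fell in wild type, close to the 8.69% and 40.8% of all genes of that length. In the mutant the members' medians were -0.12, -0.05, 0.20 and 0.48, and those of all genes -0.30, -0.06, 0.12 and 0.16. Across the 63 members, which share the same libraries, Pearson's r between the log2 of coding length and log2 fold change was 0.47 in both genotypes. Spearman's rho between coding length and log2 fold change was 0.40 and 0.44. Over 14070 genes with a coding length, r was 0.13 and 0.12, and rho 0.25 and 0.21. These are descriptions across genes, which are not independent replicates.

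**Figure D4:**
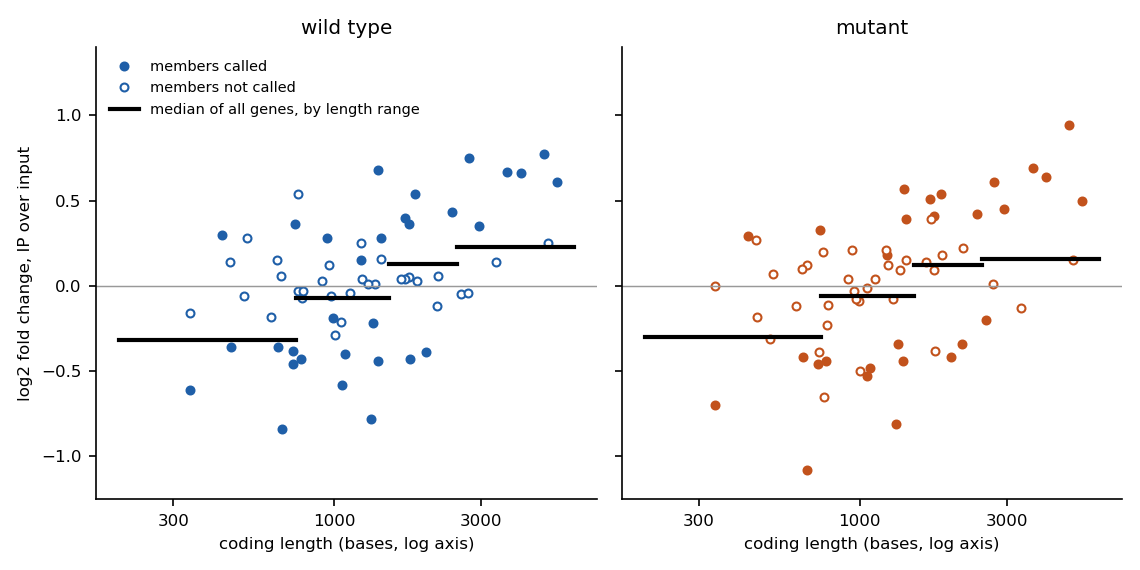
Log2 fold change of IP over input against coding length in bases (log axis) for the 63 members, in wild type (left) and mutant (right), with filled points for called members. Black lines give the median of all genes in 4 length ranges; in wild type the members' median is 0.48 from 2500 bases on and -0.16 under 750 bases.

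Between genotypes no member passed edgeR's test. In IP, 0 of 63 members were called, against 0.0553% of the 14456 genes tested (8 genes, all lower in the mutant). At an unadjusted p under 0.05 there were 4 members, against 7.62% of all genes. The members' median was 0.02, and the 95% interval of the difference lay within 0.5 on either side of 0 for 54 of the 63. Eif1 came nearest. It was at 256 to 301 CPM in wild-type IP (median 274) and at 292, 316, 336, 349.7 and 352 in mutant IP. The groups overlapped by mutant animal 11 and wild-type animal 20. The difference was 0.26 ± 0.06 on the log2 scale (95% interval 0.13 to 0.40, edgeR adjusted p = 0.216). DESeq2 called it with an adjusted p of 0.0407, where 0.519% of all genes were called. With limma-voom its adjusted p was 0.26, and 0 members and 0.0277% of genes were called. Over all alternatives the adjusted p ran from 0.0407 to 0.504. In the authors' deposited table, Eif1 was the only one of 61 members under 0.05, at 0.26 with an adjusted p of 0.0296. The transcript of Eif1 shares 31.6% of its 50-base stretches with other genes.

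The next smallest p-values in IP belonged to Eif1b, Eif5a2, Eif2b4 and Eif3h. Eif1b had a difference of 0.37 ± 0.14 (edgeR adjusted p = 0.543), Eif5a2 of 0.26 ± 0.11 (0.587), Eif2b4 of 0.41 ± 0.19 (0.652) and Eif3h of 0.15 ± 0.08 (0.74). Eif5a2 was at 66.1 to 82.4 CPM in wild-type IP (median 78.5) and at 79.8, 79.9, 85.1, 87.2 and 120.0 in mutant IP. The highest of these was animal 9, one of those with cortical marker mRNA, and without it the Eif5a2 difference was 0.14. Without mutant animal 3 the Eif3h difference was 0.09. Eif1ax was the only member whose groups did not overlap in IP, against 0.865% of all genes. It was at 253 to 267 CPM in wild type (median 261) and at 269.9, 273, 277, 277 and 278 in the mutant, a difference of 0.09 ± 0.05 (edgeR adjusted p = 0.783).

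In input, 0 of 63 members were called, against 0.0183% of 16429 genes (3 genes). At an unadjusted p under 0.05 there were 4 members, against 6.84% of all genes, and DESeq2 (0.17% of genes called) and limma-voom (0.0183%) called no member. The median was 0.03, and 55 members had a 95% interval within 0.5 of 0. Eif1b, whose gene overlaps another over 12.7% of exon bases, again had a higher value in the mutant. It was at 28.7 to 43.8 CPM in wild-type input (median 35.1) and at 40.2, 46.1, 51.5, 53.3 and 53.4 in mutant input, where only the lowest mutant and the highest wild-type libraries overlapped. The difference was 0.45 ± 0.11 (95% interval 0.21 to 0.68, edgeR adjusted p = 0.379), and the authors' deposited table gave 0.45 with an adjusted p of 0.0631. Eef1b2 had a difference of 0.27 ± 0.11 (edgeR adjusted p = 0.655), which was 0.50 without the 4 animals with cortical marker mRNA and 0.16 without mutant animal 10. Eif1a had -0.21, which was -0.04 without the 4 animals. Eif4g1 had -0.19 ± 0.09 and Eef1g 0.15 ± 0.08. In the same comparison all 5 markers of D1 neurons had lower values in mutant input (median -0.25, none called). All 5 markers of cortical excitatory neurons had higher values there (median 0.92) and in mutant IP (median 0.44), none called. Of 5 astrocyte markers, 4 were higher and 1 lower in mutant input (median 0.20), and all 4 D2 markers were lower (median -0.05), none called. Mitochondrial ribosomal RNA took 30.6% to 53.2% of counts in mutant and 25.1% to 37.1% in wild-type input. The part of the markers and of this RNA in the members' values was not tested.

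**Figure D5:**
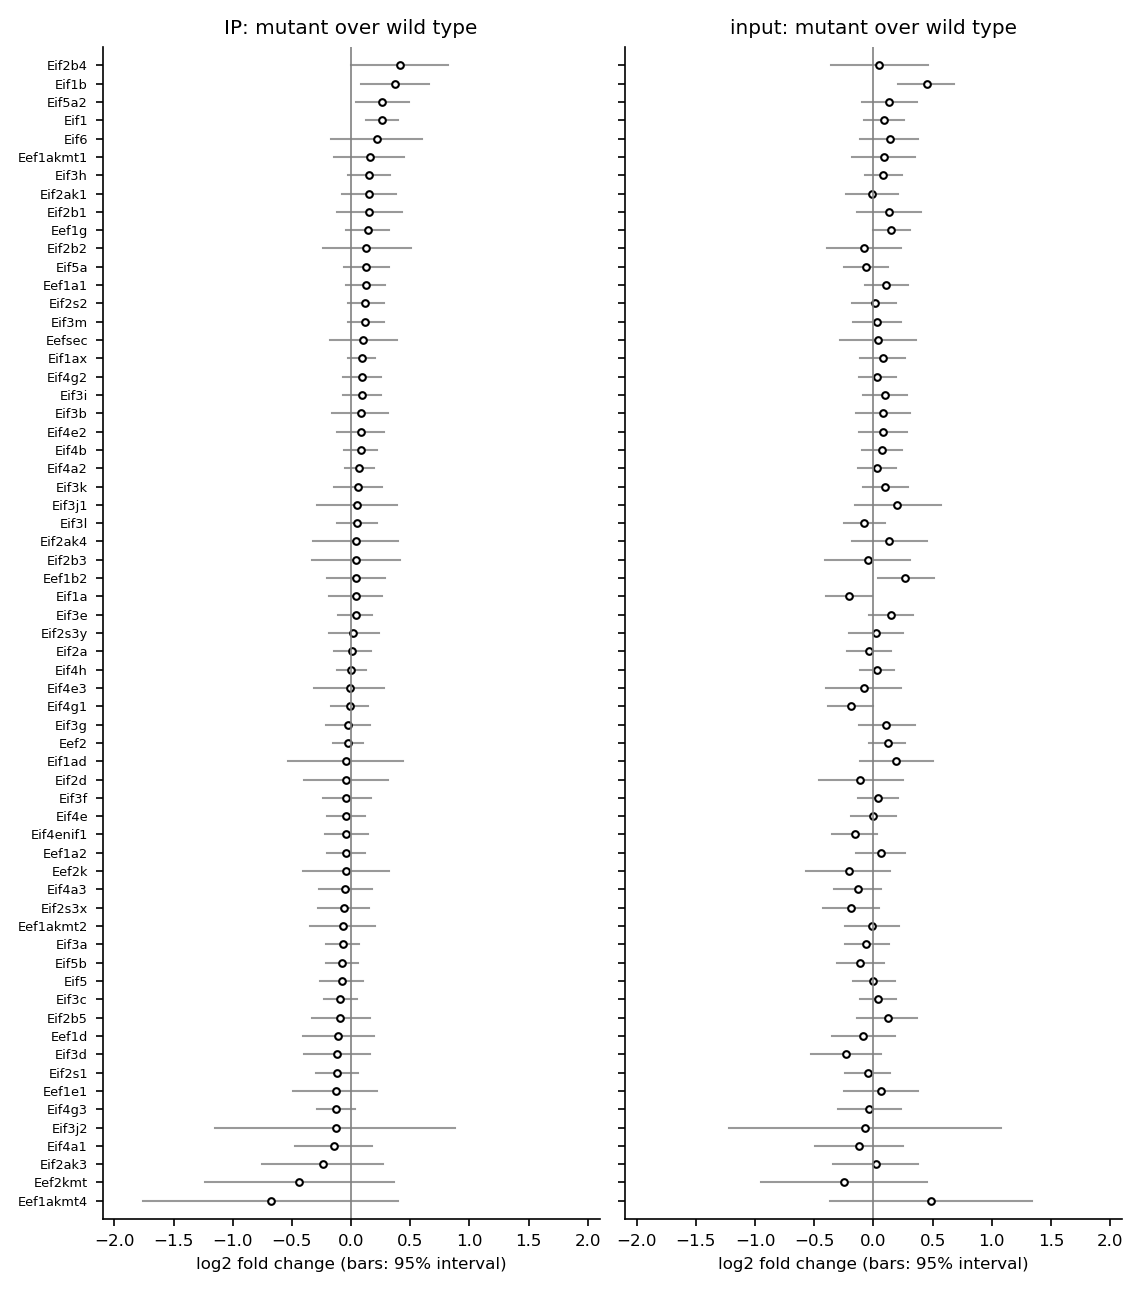
Log2 fold change of mutant over wild type for the 63 members, in IP (left, sorted) and input (right, same order), with 95% intervals from 6 and 5 animals. edgeR calls no member, and DESeq2 calls Eif1 in IP; Eif1 in IP (0.26) and Eif1b in input (0.45) have the smallest p-values.

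The test of whether IP over input differed between genotypes called 0 of 63 members and 0% of the 17311 genes. No member had an unadjusted p under 0.05, against 4.1% of all genes, and DESeq2 called 0.0289% of genes and no member. The members with the smallest p were Eef1akmt4 at -1.18 ± 0.67, Eef2 at -0.15 ± 0.09, Eif1a at 0.23 ± 0.14, Eif1 at 0.17 ± 0.10 and Eif3c at -0.14 ± 0.09. Of these, Eef1akmt4 was at -0.72 without mutant animal 9, Eif3c at -0.08 without wild-type animal 13, and Eif1a at 0.06 without the 4 animals with cortical marker mRNA. The 95% interval lay within 0.5 of 0 for 45 members. Eef1akmt4, a methyltransferase of eEF1A, was at 0.183 to 3.34 CPM in the IP libraries, so its interval is wide. Its gene overlaps other genes over 31.7% of exon bases, and 42.9% of the 50-base stretches of its transcript occur in other genes.

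Other genes of protein synthesis were described from lists of related factors. Their counts stand beside 21.8% of all genes higher and 27.8% lower in wild-type IP, and 20.9% and 26.4% in mutant IP. Of 8 termination and recycling factors, 4 rose in IP and none fell in each genotype, among them Gspt1 (eRF3a) by 0.61 ± 0.07 in wild-type and 0.60 ± 0.07 in mutant animals, and Etf1 (eRF1) by 0.46 ± 0.07 and 0.44 ± 0.08. Of 22 cytosolic tRNA synthetases and their partners, 15 rose and 1 fell in wild type and 12 and 1 in the mutant. Tars, the threonine enzyme, rose by 0.73 ± 0.10 and 0.52 ± 0.11, and Kars, the lysine enzyme, by 0.48 ± 0.08 and 0.58 ± 0.08. Of 16 tested regulators at the cap and poly(A) tail, 5 rose and 6 fell in each genotype. Cyfip2, which encodes a partner of FMRP, rose by 0.98 ± 0.07 and 0.96 ± 0.08, while Pabpc1, the poly(A)-binding protein, fell by 0.69 ± 0.08 and 0.61 ± 0.09. Of 9 genes of the integrated stress response, 2 rose and 2 fell in wild type, near the shares of all genes, and 3 and 3 in the mutant. Atf4, the transcription factor translated when eIF2 is phosphorylated, fell by 0.82 ± 0.17 and 0.84 ± 0.18. Of 10 mitochondrial translation factors, 2 rose in wild type, also near that share, and 1 in the mutant. None of these lists held a gene called between genotypes or in the interaction.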

How the data were processed

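The authors deposited raw counts of the 22 libraries by gene symbol. The submitters' processing notes name STAR, featureCounts and mm10, and versions and counting settings are not given in the sources used here. Per the labels' protocols the library kit does not mark the strand, and input and IP came from one lysate. The authors also deposited tables of log2 fold changes with p-values, made with DESeq2 per the submitters' processing notes, used only where named. All symbols were matched to GENCODE vM21 (GRCm38), which gave lengths.

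All genes were fitted with edgeR 4.0.16 in R 4.3.3 (TMM, filterByExpr, robust quasi-likelihood test, Benjamini-Hochberg at 0.05), genotypes within an assay and IP against input over 4 groups. DESeq2 1.42.0 and limma 3.58.1 (voom), other scalings and filters, an animal block and leaving out each animal were alternatives. Values are ± SE for log2 fold changes and ± SD for levels. Intervals of levels cover the spread between animals. The animal number pairs IP and input: each IP library deviated most like its own input (correlation 0.24 to 0.53 over 8299 genes).

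Members, lists and tests were chosen with earlier results of these data known. Named members are the 5 smallest p in genotype comparisons, the 10 largest called folds per direction in wild-type IP over input at a mean of at least 10 CPM, the 4 highest levels per role, paralog pairs, TOP members and kinases. Any other member named was chosen after its values were seen.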

Additional observations from a re-analysis of the deposited data

Results flagged for a closer look

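For the 26 members named by rank, the highest and lowest library of each group was compared with the others by Dixon's criterion, in 104 groups. In 6 of them 1 library lay apart, where chance gives about 1 in 20 groups. In wild-type animal 20, IP held 148 CPM of Eif4g1 against 117 to 121 in the other animals, and 353 CPM of Eif3a against 281 to 305. Input of the same animal held 379.6 CPM of Eif1 against 288 to 310.1. In mutant animal 9, one of those with cortical marker mRNA, IP held 120.0 CPM of Eif5a2 against 79.8 to 87.2, and input held 2.38 CPM of Eef1akmt4 against 1.29 to 1.47. In mutant animal 10, IP held 42.3 CPM of Eif1a against 56.7 to 62.1.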

How the results depend on the processing

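Counts were held to within 1.5 times the reported count and medians to within 1 SD between animals, and 228 of these values under alternatives stayed inside while 2 did not. Called wild-type members ranged from 13 to 18 higher and 11 to 16 lower, and mutant ones from 13 to 18 and 10 to 16. With DESeq2 or RLE scaling the wild-type counts were 15 higher and 16 lower. DESeq2 called 20.4% of all genes higher and 30.1% lower in wild type. Shares of all genes were not taken under RLE scaling, with the animal block or with animals left out. Medians near 0 changed sign: IP over input was -0.01 in wild type under DESeq2, RLE scaling and without animal 13 or 14, and -0.01 in the mutant without animals 1, 3, 9 and 12, and the interaction was 0.01 without animal 9 or 14. No called member changed sign. DESeq2 called 1 member (Eif1) between genotypes in IP, where edgeR called 0, and the members' median in input was 0.10 without animals 1, 3, 9 and 12, an alternative chosen after seeing the data, against 0.03. With the animal as a replicate block, 17 members were higher and 16 lower in wild-type IP and 18 and 14 in mutant IP, and 0 passed the interaction, and the calls it added are named in the text above. Among single members, Eif6 in the mutant passed under 9 alternatives (adjusted p 0.0235 to 0.045). Most of the paralog levels (35) moved when the length of the longest coding transcript replaced merged exons. This alternative was also chosen after seeing the data. The ratio of Eef1a2 to Eef1a1 moved in every group. The SE of the members' log2 fold change of IP over input in wild type ran from 0.05 to 0.52, and was widest for Eif3j2.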
